A study of Tetranychus urticae with 12 samples.

Results

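Whole-body gene expression was compared between BC2018-14 and London, the susceptible strains in this series on the two-spotted spider mite Tetranychus urticae. All libraries of both strains with genome-wide counts were used, 4 of BC2018-14 (a, b, c and e) and 3 of London (2, 3 and 4), which is 7 of the 12 libraries of the series. London library 5 had counts for a part of the genes only, and the 4 libraries of the resistant Trizina strain were left out. Mites of both strains were untreated, fed on kidney bean and had been kept free of insecticides, per the labels' protocols, and neither strain carried a transgene or an induced mutation in the labels. The age, the sex ratio and the number of mites behind a library are not given in the sources used here. Nor is it given whether libraries were made from separate cultures, so p-values reflect only the spread among these libraries, and that spread may be technical.

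Spider mites are very small chelicerates that pierce leaf cells and suck out their contents. They are haplodiploid, with males developing from unfertilised eggs, and inbred laboratory colonies readily become distinct from one another. London is a laboratory strain from which the reference genome of the species was assembled, whereas BC2018-14 was the other susceptible strain. Whether the reads were aligned to that assembly is not given in the sources used here. If they were, less RNA in BC2018-14 and poorer alignment of reads from a strain that differs from London in sequence cannot be told apart. In whole-body RNA, fewer cells of a type and less RNA per cell cannot be told apart either.

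Genes are known here by ID alone: the files give no gene names, and a RefSeq table of 14930 genes matched 0 of the 19114 IDs. No function is therefore given for any gene. The marker genes of a tissue or sex could likewise not be looked up. An ID carries a scaffold number and a gene number, and these are used below to place genes along a scaffold. No sequence is shown, since no source used here links one to these IDs.

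Total counts ran from 29262202 to 39875401 in London and from 26090006 to 26851943 in BC2018-14. Between 16115 and 16171 IDs had at least 1 count in a London library, and between 15334 and 15554 in a BC2018-14 library. Of all IDs, 1545 had 0 counts in all 7 libraries and 14035 passed the filter on low counts. Levels are given as CPM, counts scaled to a common library total with TMM factors. These factors were 0.862 to 0.923 in London and 1.067 to 1.104 in BC2018-14. The levels are not divided by gene length, so levels are compared between strains and not between genes.

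BC2018-14 differed from London in many genes, and more of them were lower than higher in BC2018-14. A gene was called when its adjusted p was below 0.05 and its levels differed at least 2-fold (edgeR's quasi-likelihood test, Benjamini-Hochberg adjustment over all genes tested). Of the 14035 genes tested, 2888 (20.6%) were called, with 1006 (7.17%) higher and 1882 (13.4%) lower in BC2018-14. The higher genes were thus 34.8% of all calls. This split depended on scaling: scaling by library size alone gave 1518 higher and 1560 lower genes, or 49.3% higher, and the median log2 change of all genes moved from -0.02 to 0.25. Of the 1882 genes called lower with the main scaling, 1560 were also called lower with library size alone, and all 1006 higher genes were also called higher. Library size alone moved changes upward, so the keeping of the higher genes was largely fixed in advance and is no check. No gene called in the main fit was called in the opposite direction in any of 13 other fits. These fits share most or all of the 7 libraries, so a reversed call was unlikely in any case.

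A further 2753 genes passed the adjusted p but differed by less than 2-fold, 1538 of them higher and 1215 lower in BC2018-14. With this scaling, most of the small differences were thus in favour of BC2018-14 and most of those past 2-fold in favour of London. For 8086 genes (57.6%) the 95% interval of the difference lay within 2-fold in both directions, so that a difference past 2-fold lay outside the interval. Another 3061 genes were not called, but their intervals reached past 2-fold, so a difference of that size remained possible for them. The libraries of the strains did not overlap in CPM for 6670 genes (47.5%). Among genes called higher this held for 998 of 1006, and among genes called lower for 1841 of 1882.

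**Figure D1:**
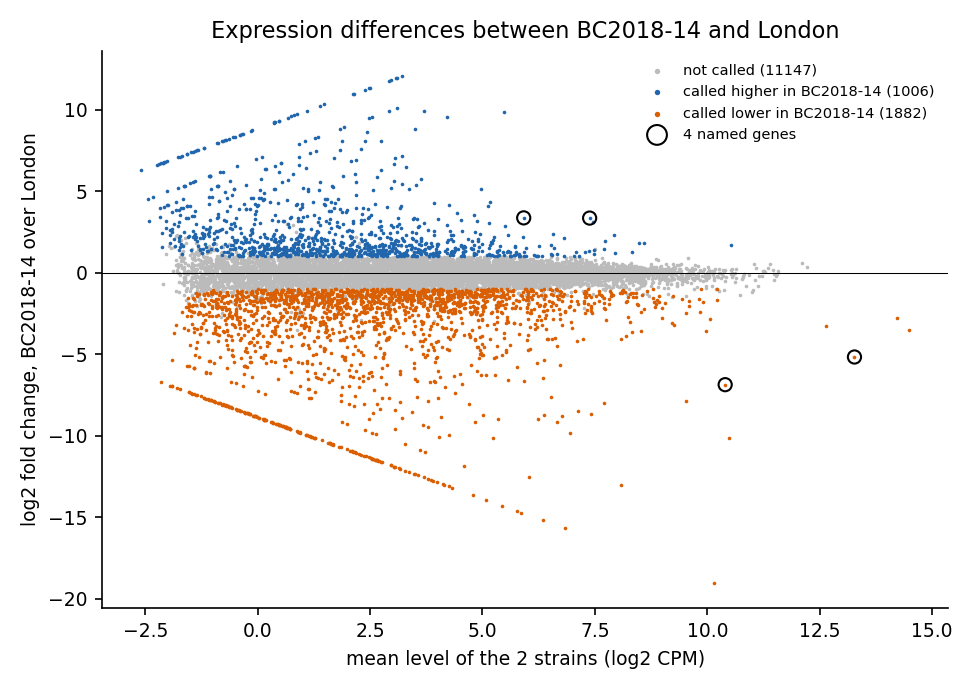
Log2 fold change of BC2018-14 over London (vertical axis) against the mean level of both strains in log2 CPM (horizontal axis) for the 14035 genes tested, with the 1006 higher genes in blue, the 1882 lower genes in orange and 4 named genes circled. The straight edges at the upper and lower left are genes with 0 counts in 1 strain, whose fitted change depends on a prior count.

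With the main scaling, the differences of lower genes were also larger. Their sizes were not computed with library size alone, under which the median log2 change of all genes was 0.25, so this order may depend on scaling. Genes with 0 counts in 1 strain were set to a limit of 3 counts per library, which is on average 0.104 CPM in either strain and covers counting error only. With this limit the higher genes had a median change of 3.61-fold and the lower genes one of 4.55-fold. Of the higher genes, 545 differed by 2 to 4-fold, 187 by 4 to 8-fold, 107 by 8 to 16-fold and 167 (16.6%) by at least 16-fold. Of the lower genes, 841 fell in the first of these classes, 373 in the second, 240 in the third and 428 (22.7%) in the last. Genes with few counts in 1 strain kept their fitted change, so the last class also holds genes whose fold is poorly measured. One was tetur01g03350, with a log2 change of -5.84 at 0.741 CPM in London and 0.00884 CPM in BC2018-14. Counts of 0 in every London library were found for 58 of the higher genes, and counts of 0 in every BC2018-14 library for 182 of the lower genes.

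Genes read at a low level differed between the strains more often than abundant genes, and the excess of lower genes grew with level. Genes were sorted by the mean CPM of the strain with more. Under 1 CPM, 145 genes were higher and 144 lower in BC2018-14, of 993 tested (29.1% called). From 1 to 10 CPM, 541 were higher and 838 lower of 4074 (33.8%). From 10 to 100 CPM, 290 were higher and 687 lower of 6157 (15.9%). From 100 to 1000 CPM, the numbers were 29 and 191 of 2700 (8.15%), and from 1000 CPM up 1 and 22 of 111 (20.7%). With library size alone the direction turned at 1 to 10 CPM, to 763 higher and 710 lower, and under 1 CPM the near balance became 208 higher and 123 lower. It stayed the same in the classes from 10 CPM up, with 495 and 551, 51 and 156, and 1 and 20 genes. Called genes that reached 100 CPM in a strain were therefore mostly lower in BC2018-14 under both scalings.

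Genes called lower in BC2018-14 held 22.7%, 18.4% and 16.1% of all counts in London libraries 2, 3 and 4. The same genes held 3.36%, 4.85%, 4.54% and 2.38% in BC2018-14 libraries a, b, c and e. All London libraries lay above all BC2018-14 libraries, with means of 19.0 ± 3.36% (SD, n = 3) and 3.78 ± 1.14% (SD, n = 4). Genes called higher in BC2018-14 held only 2.13 ± 0.158% of counts in that strain (SD, n = 4) and 0.551 ± 0.0136% in London (SD, n = 3). These shares describe the calls and are no test, since the calls were made on the same counts. The 10 most abundant genes of each library took 9.49% to 13.1% of its counts in London and 3.80% to 4.52% in BC2018-14. For the 100 most abundant genes these ranges were 22.9% to 26.3% and 16.4% to 17.3%.

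**Figure D2:**
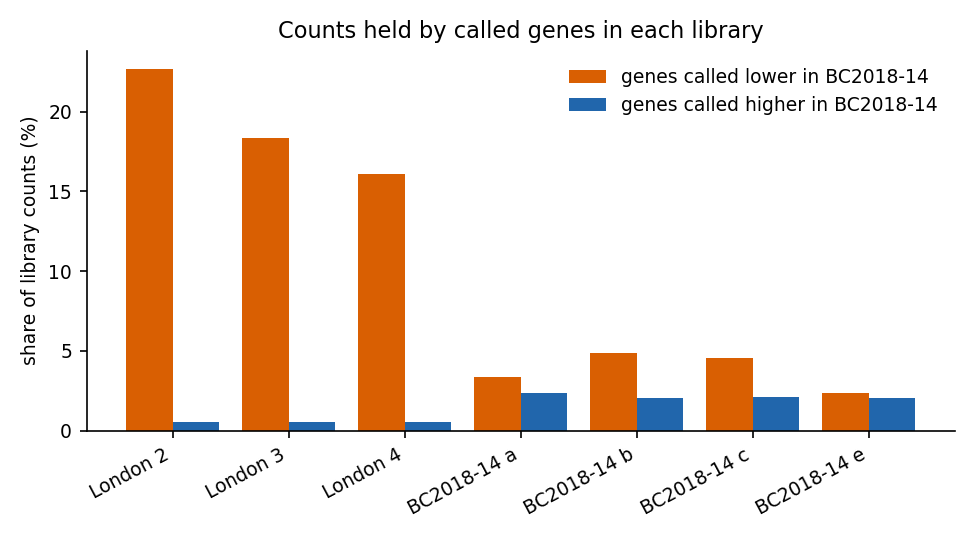
Share of all counts of a library, in percent, held by the 1882 genes called lower (orange) and the 1006 genes called higher (blue) in BC2018-14, for each of the 7 libraries. The orange bars stand at 16.1% to 22.7% in London and at 2.38% to 4.85% in BC2018-14, while the blue bars stay under 2.5% everywhere.

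To give folds that are measured and are not limits, genes with a mean of 10 CPM or more in both strains were taken. Of 7838 such genes 6.29% were called, 115 higher and 378 lower in BC2018-14. This condition removes genes that are low in 1 strain because they differ, so the share cannot be set against that of all genes. All 115 higher genes and 369 of the 378 lower genes had no overlap between the strains, against 47.5% of all genes tested at any level. Calls and overlap rest on the same libraries, so these counts describe the calls and are no further evidence. The 2 genes with the largest change in each direction among those without overlap are given in full. Their lack of overlap was thus a condition of the choice and no result. The functions of these genes are not given in the files.

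The gene tetur10g02410, on scaffold 10, had 12.9, 10.04 and 9.12 CPM in London libraries 2, 3 and 4. In BC2018-14 it had 104, 110.3, 111 and 116 CPM in libraries a, b, c and e. Every BC2018-14 library was far above every London library. The SD of log2 CPM was 0.254 in London and 0.066 in BC2018-14. The medians of genes with at least 10 CPM in both strains were 0.195 and 0.088. The log2 difference was 3.37 ± 0.13 (SE), or 10.3-fold, with an adjusted p of 9.98e-07 (edgeR quasi-likelihood, Benjamini-Hochberg).

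The gene tetur35g01150, on scaffold 35, had 30.7, 29.5 and 28.8 CPM in London and 302, 288, 296 and 331 CPM in BC2018-14. Its London libraries differed by less than 2 CPM, a smaller relative spread than that of tetur10g02410. In BC2018-14 the relative spreads of tetur35g01150 and tetur10g02410 were closer, with SDs of log2 CPM of 0.086 and 0.066 (n = 4). The log2 difference was 3.36 ± 0.09 (SE), again 10.3-fold, with an adjusted p of 1.61e-07 (edgeR quasi-likelihood, Benjamini-Hochberg).

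The gene tetur03g08460, on scaffold 3, had 3740.1, 2529.5 and 1758 CPM in London and 35.3, 30.6, 13.5 and 12.1 CPM in BC2018-14. The groups were far apart, although libraries varied within both strains. London library 2 was the highest, and BC2018-14 libraries c and e were the lowest. The log2 difference was -6.87 ± 0.53 (SE), or 117-fold lower in BC2018-14, with an adjusted p of 6.42e-05 (edgeR quasi-likelihood, Benjamini-Hochberg).

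The gene tetur43g00010, on scaffold 43, was read at 20110.0, 21455 and 16260.5 CPM in London, or 1.73%, 1.98% and 1.48% of all counts there. In BC2018-14 it had 323, 833, 892 and 93.6 CPM. The strains did not overlap, as the choice required, but the BC2018-14 libraries spanned a wide range, with library e far below b and c. The log2 difference was -5.17 ± 0.75 (SE), or 36.0-fold lower in BC2018-14, with an adjusted p of 0.00133 (edgeR quasi-likelihood, Benjamini-Hochberg).

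**Figure D3:**
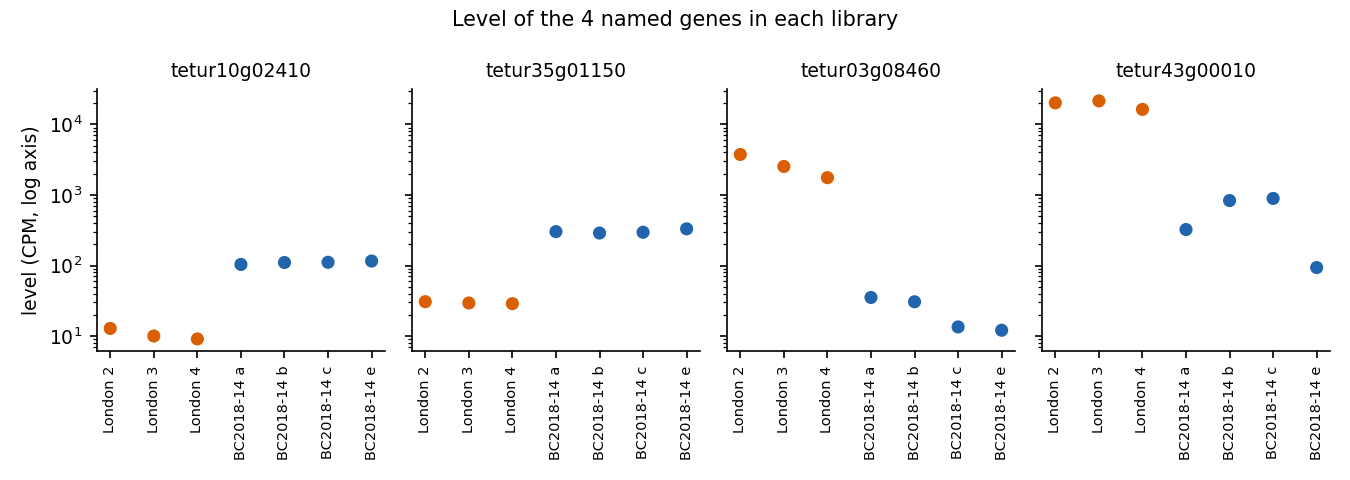
Level of the 4 named genes in CPM on a log axis, with 1 point per library, London in orange and BC2018-14 in blue. The genes were chosen among those without overlap between the strains, and tetur43g00010 spans 93.6 to 892 CPM within BC2018-14.

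Some genes were read in 1 strain and hardly or not at all in the other. Such a gene had at least 5 CPM in every library of 1 strain and at most 3 counts in every library of the other. This held for 69 genes on in London and off in BC2018-14, and for 23 genes on in BC2018-14 and off in London. The London set had mean levels from 5.95 to 2275 CPM with a median of 16.7 CPM, and 6 of its genes reached 100 CPM. Of the 69 genes, 49 had 0 counts in all BC2018-14 libraries, so that they were at least 56.9-fold to at least 21775-fold higher in London. The BC2018-14 set was less abundant, with means from 5.55 to 37.1 CPM and a median of 11.3 CPM. Of its 23 genes, 10 had 0 counts in all London libraries and were at least 53.5-fold to at least 179-fold higher in BC2018-14.

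The rule that chose these sets fixes that the strains do not overlap, and the sums are given as a description. Summed over the 69 genes, London libraries 2, 3 and 4 had 5473, 3597 and 3984 CPM, and BC2018-14 libraries had 0.247 to 0.636 CPM. Summed over the 23 genes, BC2018-14 libraries a, b, c and e had 306, 294, 319 and 335 CPM, and London libraries 0.276 to 0.476 CPM. The London set was scattered over 29 scaffolds, with at most 9 genes on a scaffold (scaffold 2) and 6 on the next (scaffold 7). The BC2018-14 set lay on 7 scaffolds, and 8 of its genes were on scaffold 5 and 6 on scaffold 11. Without London library 2 the sets held 71 and 26 genes.

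Strain differences were spread over the genome, with a few scaffolds above or below the rest. Among 36 scaffolds with at least 100 genes tested, the share called had a median of 19.1%, with the middle of the distribution from 17.0% to 20.7%, near the 20.6% of all genes. Scaffold 30 had the highest share, 34.6% of 191 genes, with 18 higher and 48 lower in BC2018-14. Scaffold 24 followed with 29.4% of 197 genes, 14 higher and 44 lower. Scaffold 36 had the lowest share, 8.33% of 108 genes.

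Lower genes outnumbered higher genes on 32 of these 36 scaffolds. Scaffold 35 went the other way, with 18 genes higher and 2 lower in BC2018-14 of 103 tested, and held one of the named genes. Scaffolds 27, 29 and 36 had small majorities of higher genes, 15 to 13, 9 to 8 and 5 to 4. With library size alone, lower genes were in the majority on 20 of 36 scaffolds and higher genes on 15. The directions on scaffolds 30, 24 and 35 stayed the same, with 23 higher and 44 lower, 19 and 41, and 27 and 1. Without London library 2, the shares called were 32.3% on scaffold 30, 27.3% on scaffold 24 and 21.7% on scaffold 35.

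**Figure D4:**
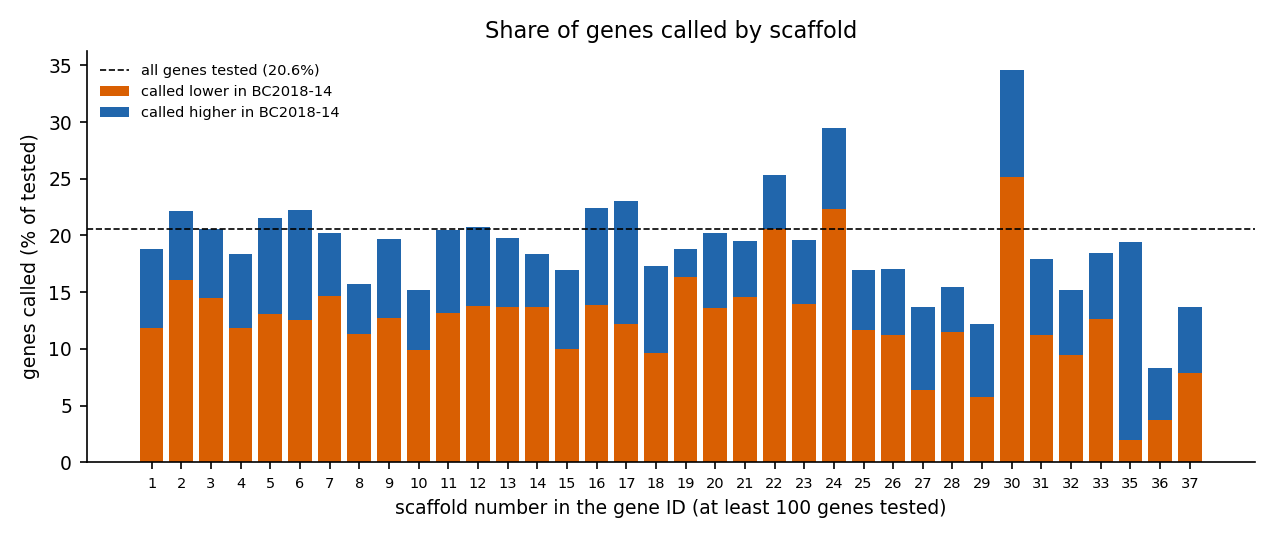
Share of tested genes called lower (orange) and higher (blue) in BC2018-14, in percent, for the 36 scaffolds with at least 100 genes tested. The dashed line marks the 20.6% called among all genes tested; scaffold 30 reaches 34.6%, and scaffold 35 is mostly blue.

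Genes next to each other in the ID order tended to be called together and in the same direction. Genes were ordered by scaffold and gene number, leaving out gene numbers from 90000 up. Of the 13443 genes in this order 19.8% were called, whereas 34.0% of the genes beside a called gene were called. In 865 neighbouring pairs both genes were called, and in 652 of them (75.4%) both moved the same way, 167 pairs higher and 485 lower in BC2018-14. At 2 steps the same direction held for 68.2% of pairs, at 5 steps for 61.2%, at 20 steps for 54.1% and at 100 steps for 59.9%. The order held 906 higher and 1756 lower genes, so called pairs placed at random would also agree more often than not. The share from this split alone was not computed, and the shares at 20 and 100 steps are not read as remaining agreement. The share called near a called gene fell to 28.4% at 2 steps and to 19.8% at 10 steps, the level of all genes in the order. Overlapping genes and near-identical copies can share reads, and the counting settings are not given in the sources used here, so their part in this pattern was not tested.

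Unbroken runs of at least 5 called genes of the same direction numbered 21, with 4 runs of higher and 17 runs of lower genes. Unbroken refers to tested genes, and IDs that were not tested could lie between them. The runs held 143 genes, or 5.37% of the called genes in the order, so most calls stood outside long runs. They were built from calls made on these same libraries, so their summed levels are a description and no test. The longest run had 20 genes higher in BC2018-14 on scaffold 11, between gene numbers 730 and 1050, where 13 further IDs were too low to test. Summed over its 20 genes, London libraries 2, 3 and 4 had 7.97, 5.17 and 4.27 CPM and BC2018-14 libraries a, b, c and e had 164, 158, 168 and 169 CPM. Without London library 2 the longest run was shorter, 15 genes from gene number 850 on the same scaffold.

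Another run of higher genes lay on scaffold 5, from gene number 6360 to 6440, and took in all 9 IDs of that stretch. The London libraries had 5 counts in all over these 9 genes, and the summed level was 0.0397 to 0.0733 CPM there against 73.8 to 81.8 CPM in BC2018-14. Of the 8 genes on scaffold 5 that were on in BC2018-14 and off in London, 5 lay in this stretch, and all 6 such genes of scaffold 11 lay in the run of 20. Shorter runs of 5 genes lay on scaffold 3, from 5610 to 5730, and on scaffold 6, from 1100 to 1240. Their stretches held 5 and 9 further IDs that were not tested. The summed levels of these runs in BC2018-14 were 25.4 ± 1.76 CPM and 5.24 ± 0.444 CPM (SD, n = 4), with 6 and 3 counts in all over the London libraries.

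Runs of lower genes were more numerous, and none had more than 9 genes. On scaffold 2, there were 9 genes from 7950 to 8090 and 9 genes from 14941 to 15125. Their stretches held 6 and 7 further IDs that were not tested. The summed levels of these runs were 60.4 ± 16.4 and 84.1 ± 7.77 CPM in London (SD, n = 3) and 8.96 ± 0.337 and 11.2 ± 0.954 CPM in BC2018-14 (SD, n = 4). On scaffold 7, 9 genes from 2180 to 2360 had 78.7, 66.2 and 74.0 CPM in London and 0.280 to 0.979 CPM in BC2018-14. That stretch held 4 further IDs that were not tested. The run with the highest summed level, 5 genes from 1800 to 1850 on scaffold 30, had 3372, 1877 and 2195 CPM in London and 6.38 to 8.66 CPM in BC2018-14. A run of 6 genes followed on the same scaffold from 1880 to 1950. On scaffold 26, 6 genes from 430 to 510 had 1240.2, 671 and 516 CPM in London and 6.48 to 15.2 CPM in BC2018-14.

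**Figure D5:**
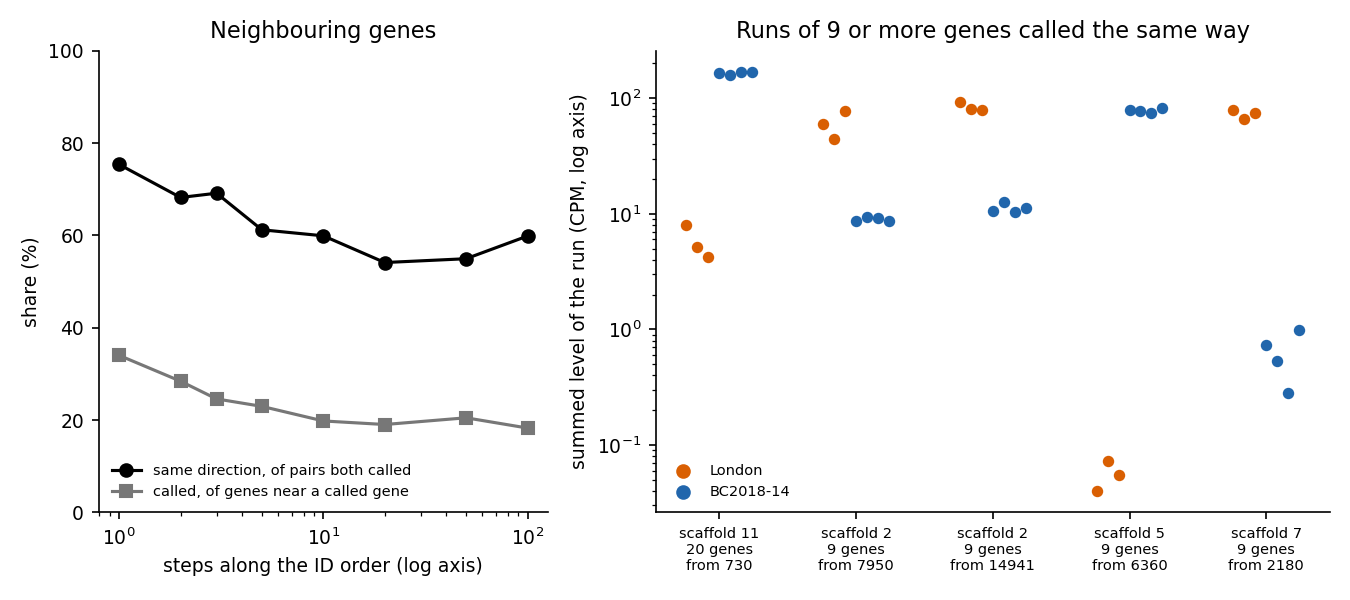
Left, share of called pairs with the same direction (black) and share of genes called near a called gene (grey), in percent, against steps along the ID order on a log axis; the values go from 75.4% and 34.0% at 1 step to 59.9% and 18.3% at 100 steps. Right, summed CPM on a log axis of the 5 runs with at least 9 genes, with 1 point per library, London in orange and BC2018-14 in blue. The runs were built from genes called on these same libraries, so the separation of the strains follows from the choice.

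The libraries within a strain were not equally close, and London library 2 stood apart. The median absolute difference over genes between London libraries 3 and 4 was 0.173 on the log2 CPM scale, against 0.340 and 0.351 between library 2 and the others. Pairs of BC2018-14 libraries differed by 0.116 to 0.182, and pairs across strains by 0.377 to 0.545. The median SD over genes was 0.252 in London (n = 3) and 0.135 in BC2018-14 (n = 4), and without library 2 it was 0.124 in London (n = 2). A median SD tends to be smaller with fewer libraries, so these medians are not fully comparable. The difference between London libraries 3 and 4, 0.173, lay within the range of the BC2018-14 pairs. By that measure the larger spread of London rested mainly on library 2. Without that library 1114 genes were called higher and 1716 lower in BC2018-14, or 39.4% higher.

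The variation within strains had a direction among the genes called lower. Of the 378 such genes with at least 10 CPM in both strains, 67.7% were highest in library 2 among the London libraries, against 43.3% of the 7345 genes not called at that level. In BC2018-14, 66.9% of the lower genes had their lowest level in library e, against 20.2% of the genes not called, and 49.7% their highest in library b, against 23.8%. The median log2 difference of London library 2 from libraries 3 and 4 was 0.42 among the lower genes and 0.02 among genes not called. For BC2018-14 library b against e these medians were 0.57 and -0.05. Across the 7838 genes at this level these 2 differences, which share no library, had a correlation of 0.371, and genes are not independent replicates. The correlation was 0.337 among lower genes, 0.401 among higher genes and 0.334 among genes not called. The pair of differences was chosen after the values had been seen. The lower genes were called on these same libraries, so their shares and medians are a description and no test. Among the 115 higher genes the medians were 0.15 and -0.04.

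London library 5 was not in the fit and gave a further measure for part of the genes. Its counts are in the authors' deposited table of Trizina and London, which lists 1458 genes, and 1381 of these were tested between BC2018-14 and London. Its scale was set by the median ratio to the other London libraries over 62 listed genes with at least 10 CPM in both strains and no call. Of 391 listed genes called higher in BC2018-14, 388 (99.2%) were lower in London library 5 than in every BC2018-14 library. Of 749 listed genes called lower, 748 (99.9%) were higher in London library 5 than in every BC2018-14 library. The authors' comparison with Trizina had this library among its London samples, so the listed genes are ones in which it differed from Trizina together with the others. They were also called here far more often than the 20.6% of all genes tested. The same share over all listed genes was not computed, so the agreement is no independent test. London library 5 lay within the range of the other London libraries for 241 of the 391 higher genes and 516 of the 749 lower genes. The named genes had 10.3 CPM (tetur10g02410), 32.9 CPM (tetur35g01150), 1797 CPM (tetur03g08460) and 25119 CPM (tetur43g00010) in London library 5. The values of tetur10g02410 and tetur03g08460 were within the range of the other London libraries, and those of tetur35g01150 and tetur43g00010 were above it.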

How the data were processed

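Reads came from paired-end, stranded mRNA libraries, per the labels' protocols. The authors deposited raw read counts per gene; HISAT2 2.1.0, SAMtools 1.10, featureCounts 1.6.0 and edgeR are named in the submitters' processing notes. The genome build, the gene annotation used and whether counting used strand are not given in the sources used here, so overlapping genes, antisense pairs and copies are uncertain. The header of the count table names 12 libraries and its rows hold 11 values. Fields were assigned because they equalled the named columns of the authors' comparison tables at 1458 of 1458 genes for London 2, 3 and 4 and at 967 of 967 genes for BC2018-14.

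The 7 libraries were fitted with edgeR 4.0.16 in R 4.3.3 across all genes (filterByExpr, TMM factors, robust quasi-likelihood, strain as the only term). Log2 CPM used a prior count of 2, and SDs over genes are of log2 CPM. The SE of a log2 difference was worked back from that difference and the F statistic of the test. The 95% intervals were built from these SEs with the t distribution, so both are approximate. The steps were tested on 3 simulated data sets with 200 changed genes each, equally many in either direction. Of log2 changes of 1.5 and 3, 83% and 97% were recovered, and 3.92% of calls were false. The simulated data had no excess of lower genes, so they do not test how the split of calls depends on scaling. Libraries of the same strain differed by more than sampling noise (chi-square per degree of freedom 28.4 to 157). Named genes were the 2 per direction with the largest change among called genes without overlap and with 10 CPM or more on average in both strains. The planned lists by gene description could not be applied. The comparison, its measures and the lists were chosen with earlier results of these data known. Alternatives included DESeq2 1.42.0, other scaling and filters, and leaving out each library.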

Additional observations from a re-analysis of the deposited data

How the results depend on the processing

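The 4 named genes kept their direction and their call in all 13 other fits. Leaving out 1 library at a time gave 946 to 1114 higher and 1716 to 1931 lower genes, a share of higher genes of 33.0% to 39.4%, same-direction neighbours of 72.4% to 76.4%, and a median SD of 0.124 to 0.249 in London and 0.119 to 0.137 in BC2018-14. The lowest SD of London is without library 2. Library size alone gave 1518 higher genes and a share of 49.3%. Without a filter on low counts the share was 33.1%. With all 11 libraries in the fit, 1105 genes were higher and 2016 lower, and DESeq2 gave 1038 and 1922. By construction, the threshold set the number of calls: without the 2-fold limit 2544 genes were higher and 3097 lower (45.1% higher), which held 16.7% of counts in BC2018-14 and 30.9% in London respectively, and an adjusted p below 0.001 with a log2 change of at least 1.5 gave 396 and 750 (edgeR quasi-likelihood). With on as at least 1 CPM, 190 genes were on in London and 73 in BC2018-14, and with off as 0 counts 49 and 10. The median SD of BC2018-14 was 0.0880 for genes with at least 10 CPM in both strains. No paired analysis was possible because the labels of these strains share no replicate number. The values without London library 2 for genes read in 1 strain, shares of counts, levels and scaffolds, and the values by level and scaffold with library size alone, were added after the data had been seen. Depth limits folds for genes with 0 counts in a strain to the bound set by 3 counts per library.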

Other observations

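Gene IDs with numbers from 90000 up, a block apart from the other IDs of a scaffold, were called more often in all. Of 592 such genes tested, 100 were higher and 126 lower in BC2018-14 (38.2% called), against 19.8% of the 13443 other genes. Their median level in London was lower, 1.97 CPM against 23.2 CPM, and low genes were called more often in general. Sorted by the strain with more, the shares were close under 1 CPM, with 31.6% of 136 of these genes called against 28.7% of 857 others. At 1 to 10 CPM 47.5% of 280 of these genes were called, against 32.8% of 3794 others. At 10 to 100 CPM the shares were 29.0% of 145 and 15.6% of 6012, and at 100 to 1000 CPM 21.4% of 28 and 8.01% of 2672.

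Genes on small scaffolds showed a similar excess. Of 760 genes on scaffolds with fewer than 100 genes tested, 130 were higher and 156 lower in BC2018-14 (37.6% called), against 19.6% of 13275 genes on the 36 larger scaffolds. Under 1 CPM the shares were 42.7% of 82 and 27.9% of 911 genes, and at 1 to 10 CPM 50.2% of 289 and 32.6% of 3785. At 10 to 100 CPM the shares were 30.0% of 287 and 15.2% of 5870 genes, and at 100 to 1000 CPM 18.5% of 92 and 7.78% of 2608. Both groupings were made after earlier results of these data were known, and they are described without a test.

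In BC2018-14, 18 measures of the 4 libraries (named genes, totals, shares of counts and summed runs) were examined with Dixon's criterion at the 95% level, which sets the gap of the highest or lowest library against the range of all 4. It was passed by 0 of them. The largest gap was 0.781 of the range, for the share of counts held by genes called higher, in which library a was the highest. With 4 libraries this criterion finds only a library very far from the rest.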
